A study of Mus musculus with 12 samples.

Results

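Solute carrier genes were followed in CD4 T cells of mouse intestine and spleen. The set took every gene symbol of the deposited matrix that starts with Slc and a digit and has 200 or more unique molecular identifiers (UMIs, each standing for 1 captured transcript) over all cells, without Slc2a1, Slc2a3, Slc16a1 and Slc16a3. Of 315 such symbols among 18601 genes, 149 were members, 162 lay under 200 UMIs and 4 were the named exceptions. Just inside the limit were Slc44a1 with 219 UMIs, Slc5a6 with 225 and Slc9a7 with 228. Just outside were Slc7a14 and Slc25a42 with 198 UMIs each and Slc16a10 with 193.

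The cells came from recipients of transferred Th1 cells, the CD4 T cells that make interferon gamma. In the KO groups both Il23r alleles of the transferred cells carried the eGFP insertion (Il23r eGFP/eGFP), and in the control groups 1 allele did (Il23r wt/eGFP), so the control cells carried the reporter allele too. Single-cell 3′ libraries were made from colon epithelium and small intestine lamina propria, with 1 KO and 1 control library each, and from colon lamina propria and spleen, with 2 KO and 2 control libraries each. The number of animals behind a library and the host strain are not stated in the labels. Spleens were pressed with a syringe plunger and red cells lysed, whereas intestinal T cells were freed with a dissociation kit, so tissue and isolation method cannot be told apart.

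Values were taken from CD3-positive cells, those with 3 or more UMIs of Cd3d, Cd3e and Cd3g together. These were 29623 of 32763 cells (90.4%), with 50.6% in the KO small intestine library and 77.9% to 98.4% in the others. Each library held 1902990 to 13248318 UMIs in these cells, the fewest in KO small intestine. Replicate 1 libraries were deeper per cell (medians of 3938 to 5690 UMIs) than replicate 2 libraries (2273 to 3033). The replicates also parted by sex-linked genes, with Xist at 564 to 1190 CPM in the 4 replicate 1 libraries and at most 0.321 CPM in the 8 of replicate 2. The Y-linked Ddx3y was at 0.0 CPM in replicate 1 and at 31.2 to 120.7 CPM in replicate 2. Eif2s3y was at 0.0 CPM in replicate 1 and at 46.2 to 114.7 CPM in replicate 2. Batch and the sex of the cells can therefore not be told apart. All 7 T cell markers found in the matrix were detected in every library, as was Cd4 (189 to 341 CPM), and the 2 CD8 genes summed to 2.31 to 19.3 CPM. CPM here means UMIs scaled to a common library size after TMM normalisation. Of 32077 cell barcodes, 677 occurred in more than 1 library. Il23r was counted at 0.277 to 4.29 CPM, and 3′ tags of this allele do not check the labels.

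Solute carriers are membrane proteins that move amino acids, sugars, nucleotides, metals and other ions across the cell surface and the membranes of mitochondria, Golgi and lysosomes. Activated T cells are known to raise amino acid uptake, above all through the heterodimer of Slc3a2 and Slc7a5, because leucine feeds protein synthesis and signals to the kinase complex mTORC1. Most proteins of the Slc25 family sit in the inner mitochondrial membrane, and the role of mitochondrial carriers below takes the whole family by its number. Many Slc35 proteins carry nucleotide sugars into the Golgi and endoplasmic reticulum, where glycans are built.

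The members together took 0.454% of the UMIs. Of the 149, 148 had a UMI in all 12 libraries, the exception being Slc44a1, which had none in the KO small intestine library. Mean levels ran from 0.948 to 872 CPM, with a median of 10.6 CPM, and 7 members reached 100 CPM. Between the tissue with the highest mean and the tissue with the lowest, the median member differed 1.60-fold. In all, 40 members differed 2-fold or more, 12 of them 4-fold or more, and 56 by less than 1.5-fold. The same counts were not taken over all genes, so they do not set the members apart. Among the 12, some were scarce, such as Slc44a1 (mean 0.948 CPM), Slc6a13 (1.31 CPM) and Slc6a8 (2.36 CPM), where counting error widens such a ratio. Others, such as Slc3a2 (355 CPM), were abundant. Slc44a1 and Slc6a8, a choline and a creatine carrier among the 12, had their highest mean in colon epithelium, Slc44a1 with 4.44 CPM in KO and 0.4797 CPM in control and Slc6a8 with 10.4 CPM in KO and 2.32 CPM in control, and that KO library also held 618 CPM of epithelial markers. Without cells carrying 3 or more UMIs of other cell types' markers, 42 members differed 2-fold or more, 11 of them 4-fold or more, with Slc44a1 at 2.47-fold. A summed level cannot separate fewer expressing cells from less RNA per cell.

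Colon lamina propria was compared with spleen over 4 libraries on each side, with genotype in the model. By edgeR's quasi-likelihood test, 33 of the 148 members that passed the filter on low counts were higher in colon lamina propria and 28 were lower (adjusted p under 0.05), against 37.6% of the 11305 genes tested (18.7% higher and 18.9% lower). The members' share, 41.2%, was near that of all genes, and the median log2 fold change was -0.04 in the members and -0.04 over all genes. Scaling by library totals alone moved the median of all genes by -0.20 and gave 25 members higher and 43 lower, with 53 of the 61 calls kept and no sign of a called member turned. Changes below are therefore relative to the TMM scale.

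Of 18 amino acid carriers, 7 were higher in colon lamina propria and 2 lower (6 and 3 with library totals alone), and their median log2 fold change was 0.16 (-0.05 with library totals alone). Slc3a2, the heavy chain that brings several amino acid transporters to the cell surface, measured 704 and 448 CPM in KO and 749 and 386 CPM in control colon lamina propria, against 131 and 103 CPM in KO and 111 and 111 CPM in control spleen. Every colon library lay far above every spleen library, and within colon both replicate 1 libraries lay above both replicate 2 libraries. The log2 fold change was 2.33 ± 0.23 (SE; edgeR adjusted p = 2.56e-05).

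Its light chain Slc7a5, which exchanges large neutral amino acids, measured 56.3 and 34.7 CPM in KO and 46.1 and 21.1 CPM in control colon, against 13.5 and 13.2 CPM in KO and 11.9 and 12.8 CPM in control spleen. The groups did not overlap, and the spleen libraries were nearly level while the colon libraries were spread (log2 1.61 ± 0.27 SE, edgeR adjusted p = 0.000994). Slc7a1, the transporter of arginine and lysine, measured 30.8 and 18.6 CPM in KO and 29.1 and 14.3 CPM in control colon, against 8.77 and 7.103 CPM in KO and 10.1 and 8.87 CPM in control spleen. Again no library crossed over (log2 1.41 ± 0.24 SE, edgeR adjusted p = 0.000926).

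Slc38a2, a sodium-coupled carrier of small neutral amino acids known to respond to amino acid shortage, measured 154 and 165 CPM in KO and 199.7 and 84.8 CPM in control colon, against 79.1 and 42.9 CPM in KO and 62.6 and 35.4 CPM in control spleen. The lowest colon library was only slightly above the highest spleen library (log2 1.47 ± 0.29 SE, edgeR adjusted p = 0.00288). Its relative Slc38a1 was higher by a log2 fold change of 0.60 ± 0.15 (SE; edgeR adjusted p = 0.00968). The taurine carrier Slc6a6 (0.52 ± 0.14) and the scarce creatine carrier Slc6a8 (1.67 ± 0.51) were higher too, Slc6a6 not with library totals alone (adjusted p = 0.103). Slc1a5, a main glutamine carrier of T cells, averaged 99.9 ± 10.02 CPM in colon and 95.8 ± 7.91 CPM in spleen (SD, n = 4 each) and did not pass (log2 0.06 ± 0.11 SE, edgeR adjusted p = 0.706). The 2 lower members were Slc38a9 (edgeR adjusted p = 0.0126) and Slc36a1 (edgeR adjusted p = 0.0432). With DESeq2 size factors as the scale, 1 amino acid member was lower. Both act at lysosomes, but so does Slc15a3 of another role, which was higher (log2 2.05). Slc38a9, which reports lysosomal arginine to mTORC1, averaged 4.28 ± 0.8902 CPM in colon and 8.41 ± 1.24 CPM in spleen, and Slc36a1 averaged 1.88 ± 0.178 CPM in colon and 3.26 ± 0.731 CPM in spleen (SD, n = 4 each).

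**Figure D1:**
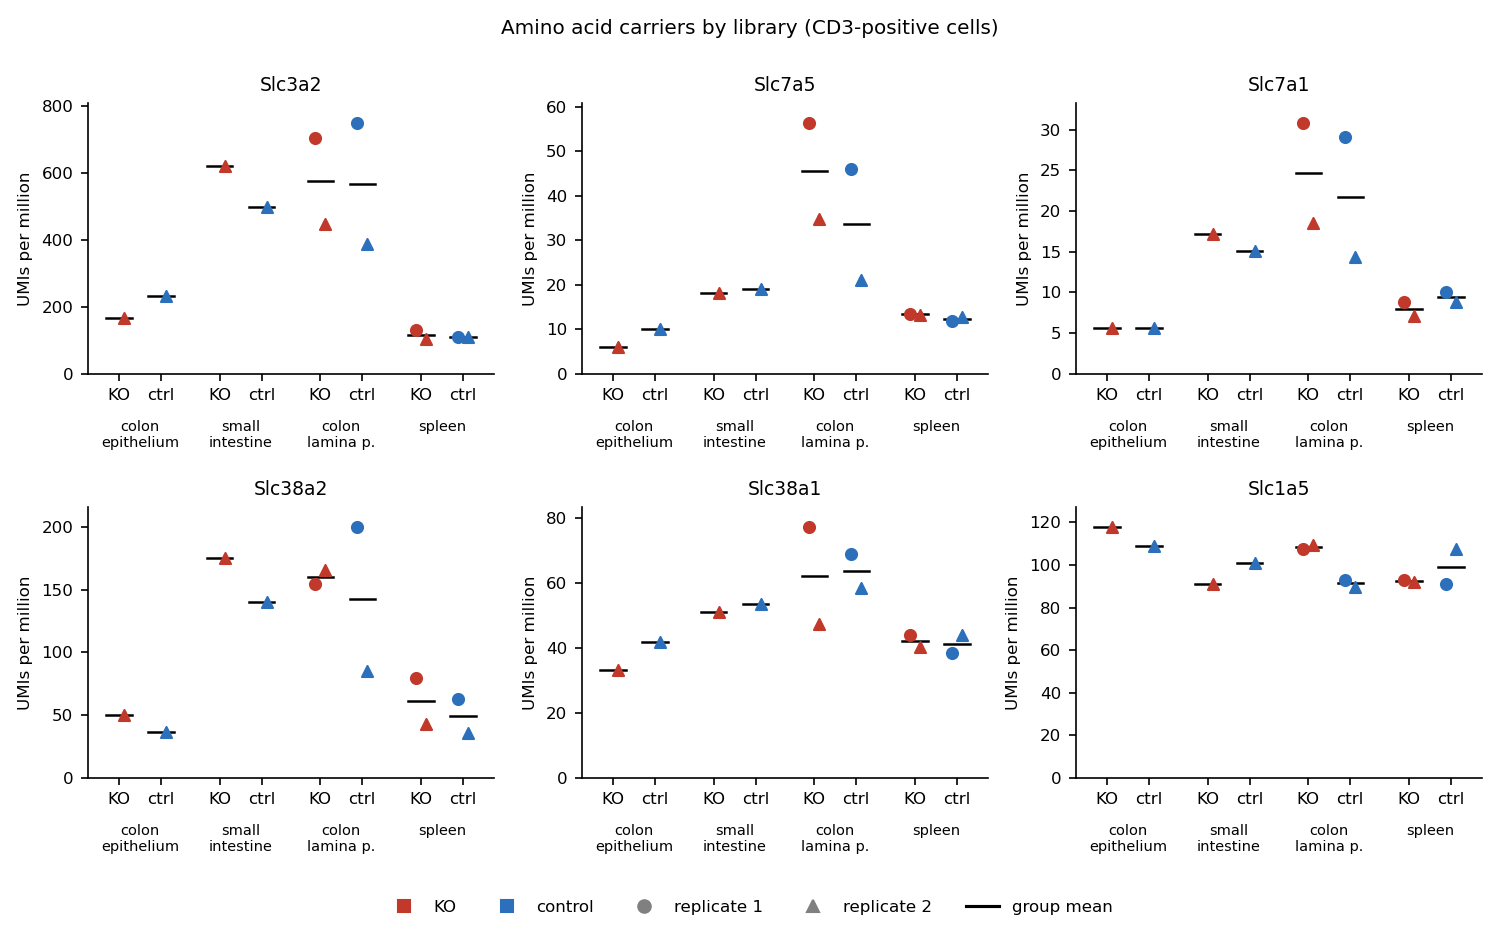
CPM in each library (vertical axis, from 0) for 6 amino acid carriers; points are libraries, red for KO and blue for control, circles for replicate 1 and triangles for replicate 2, and bars are group means. Slc3a2, Slc7a5, Slc7a1 and Slc38a2 stand higher in all 4 colon lamina propria libraries than in all 4 spleen and both colon epithelium libraries, and Slc1a5 stays within 89.8 to 118 CPM in all 12.

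Summed over the 18 amino acid carriers, the level was 508 CPM in KO and 563 CPM in control colon epithelium, and 1101 CPM in KO and 957 CPM in control small intestine. Colon lamina propria held 1254 and 944 CPM in KO and 1324 and 776 CPM in control libraries, and spleen 491 and 413 CPM in KO and 443 and 435 CPM in control libraries. All 6 lamina propria libraries stood above the other 6. Slc3a2 was the largest single term in each of the 12 libraries, not only in those of lamina propria.

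Other gene lists bear on these carriers. Of 14 tested genes of the amino acid response, 5 were higher in colon lamina propria than in spleen (Atf4, Ddit3, Asns, Trib3 and Cebpb) and 2 were lower (Ddit4 and Psat1), with a median log2 fold change of 0.40. Atf4, the transcription factor of that response, averaged 138 CPM in colon and 65.2 CPM in spleen (log2 1.09 ± 0.30 SE, edgeR adjusted p = 0.018). Of 11 genes of amino acid sensing by mTORC1, 3 were higher (Mtor, Rheb and Sesn1) and 2 lower (Lamtor4 and Lamtor5), with a median of 0.28. Of 9 genes of metal handling, 5 were higher (Tfrc, Fth1, Ftl1, Mt1 and Mtf1) and Aco1 was lower, with a median of 0.64. Over all genes 37.6% were called and the median was -0.04.

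Among the 33 mitochondrial carriers 6 were higher in colon lamina propria and 4 lower (4 and 9 with library totals alone). Slc25a36, a carrier of pyrimidine nucleotides, measured 29.3 and 47.6 CPM in KO and 26.9 and 38.03 CPM in control colon, against 5.53 and 9.21 CPM in KO and 5.68 and 9.79 CPM in control spleen. The colon libraries stood far above the spleen libraries, and in both tissues and genotypes the replicate 2 library was the higher (log2 2.19 ± 0.23 SE, edgeR adjusted p = 3.73e-05). Slc25a51, the mitochondrial NAD carrier, averaged 84.8 ± 18.8 CPM in colon and 37.4 ± 5.05 CPM in spleen (SD, n = 4 each). It passed without overlap (log2 1.18 ± 0.17 SE, edgeR adjusted p = 0.000341). Both mitoferrins, the iron carriers Slc25a28 (log2 1.07 ± 0.22) and Slc25a37 (0.65 ± 0.21), were higher, Slc25a37 not with library totals alone (adjusted p = 0.106). Erythroid markers summed to 1788 CPM in colon lamina propria control 1, against 0.0 to 202 CPM in the other libraries, the highest of these being KO spleen 2. Whether this bears on the mitoferrins or on the genes of metal handling was not tested.

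The most abundant carriers of this family did not pass. Slc25a5, an ADP/ATP exchanger, averaged 855 ± 171 CPM in colon and 898 ± 122 CPM in spleen (SD, n = 4 each; log2 -0.07 ± 0.16 SE, edgeR adjusted p = 0.746). Slc25a4, the other ADP/ATP exchanger, averaged 238 ± 38.1 CPM in colon and 299.7 ± 11.4 CPM in spleen (log2 -0.34 ± 0.13 SE, edgeR adjusted p = 0.0556, and 0.0405 with the replicate number as a block). Slc25a3, the phosphate carrier, averaged 502 ± 145 CPM in colon and 376 ± 23.4 CPM in spleen (log2 0.42 ± 0.18 SE, edgeR adjusted p = 0.0794, and 0.0441 with the block).

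In the Slc35 family 4 of 19 members were higher in colon lamina propria and 7 lower (3 and 8 with library totals alone). Slc35c1, which brings GDP-fucose into the Golgi, measured 8.08 and 9.47 CPM in KO and 8.08 and 10.2 CPM in control colon, against 35.1 and 26.1 CPM in KO and 38.4 and 25.2 CPM in control spleen. All colon libraries were far below all spleen libraries (log2 -1.79 ± 0.17 SE, edgeR adjusted p = 1.87e-05). Slc35a1, the CMP-sialic acid carrier (log2 -0.75 ± 0.19), Slc35d2 (-1.14 ± 0.24) and Slc35a5 (-1.17 ± 0.19) were lower too, Slc35a1 not in the replicate 2 libraries alone (adjusted p = 0.0636). Slc35d1, which carries UDP-glucuronic acid and UDP-N-acetylgalactosamine, measured 24.1 and 15.9 CPM in KO and 18.3 and 18.4 CPM in control colon, against 7.63 and 5.56 CPM in KO and 4.57 and 6.004 CPM in control spleen. Its libraries were all higher in colon (log2 1.71 ± 0.20 SE, edgeR adjusted p = 8.91e-05). Slc35e2 was also higher (1.65 ± 0.36). Slc35b1, which moves ATP into the endoplasmic reticulum, did not pass (0.25 ± 0.18, adjusted p = 0.31).

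**Figure D2:**
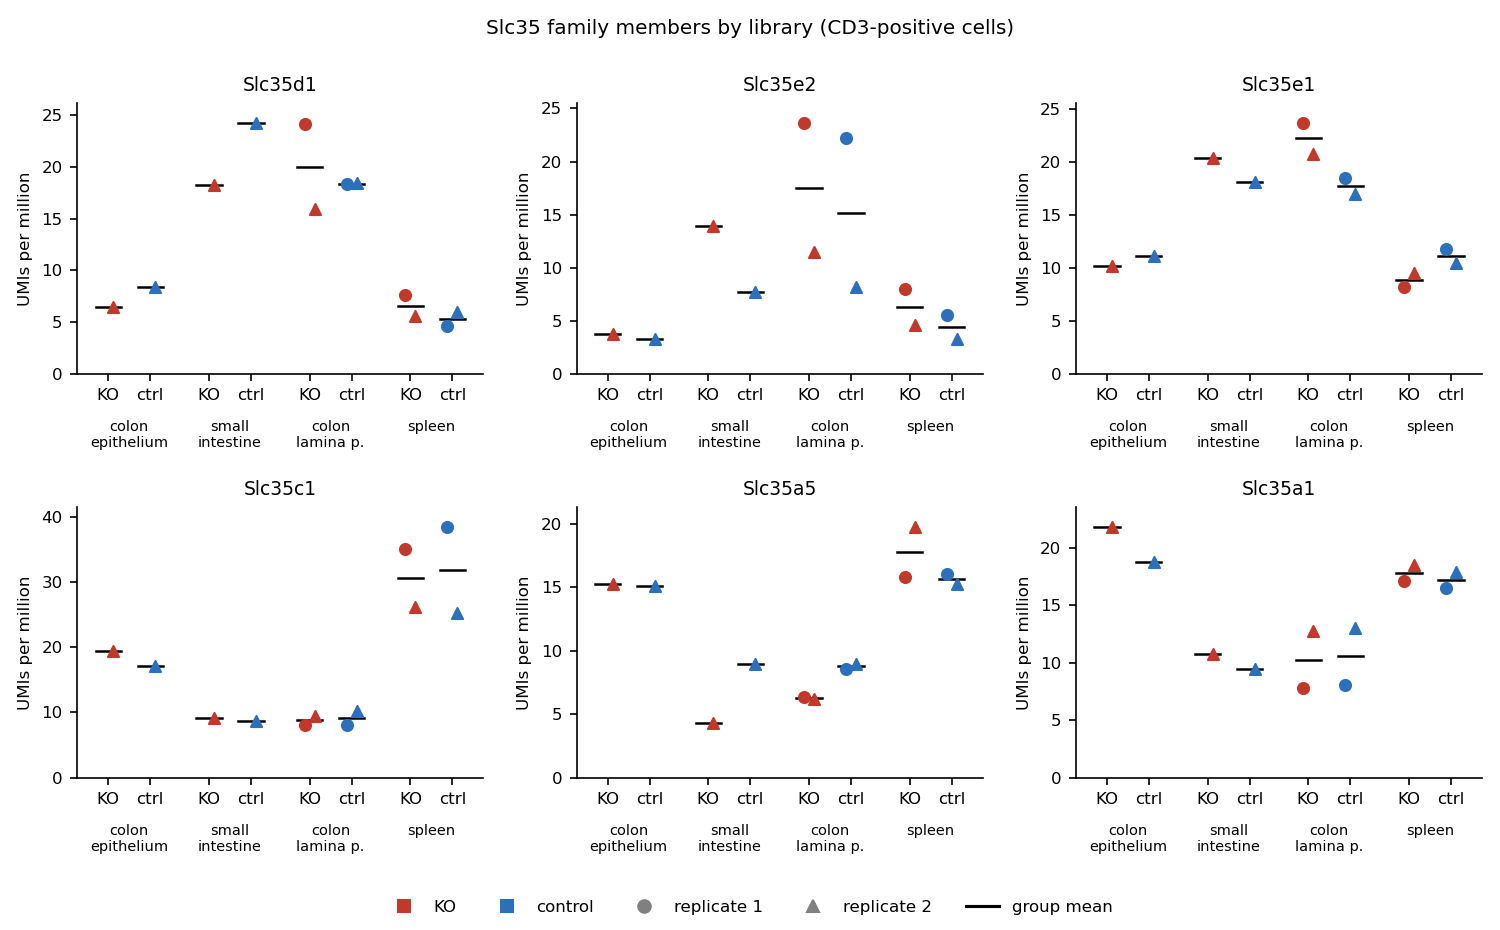
CPM in each library (vertical axis, from 0) for 6 members of the Slc35 family; points are libraries, red for KO and blue for control, circles for replicate 1 and triangles for replicate 2, and bars are group means. The upper row (Slc35d1, Slc35e2, Slc35e1) has higher means in colon lamina propria than in spleen and colon epithelium, and the lower row (Slc35c1, Slc35a5, Slc35a1) has lower ones.

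Promoter windows of 300 bases, 250 before and 50 after each RefSeq start (build GRCm38.p6), were read for 113 of the 149 members. Of the 20 named members of the comparison of colon lamina propria with spleen, 12 had an entry and the others were not read. Shown are Slc3a2, the amino acid member with the largest fold, and the 3 named members of this comparison whose window holds the E-box CACGTG, letters known to be bound by the MYC and TFE3 families. All lie on the minus strand, Slc3a2 at chr19:8713848-8714147, Slc25a36 at chr9:97110992-97111291, Slc33a1 at chr3:63964684-63964983 and Slc35a5 at chr16:45158624-45158923. Capitals mark CACGTG, which reads the same on both strands.
Slc3a2: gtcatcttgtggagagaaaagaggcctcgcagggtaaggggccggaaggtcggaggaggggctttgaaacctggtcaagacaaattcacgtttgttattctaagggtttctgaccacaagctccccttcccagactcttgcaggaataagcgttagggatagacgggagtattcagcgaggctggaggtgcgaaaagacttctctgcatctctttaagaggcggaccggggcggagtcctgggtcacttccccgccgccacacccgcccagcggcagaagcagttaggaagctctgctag
Slc25a36: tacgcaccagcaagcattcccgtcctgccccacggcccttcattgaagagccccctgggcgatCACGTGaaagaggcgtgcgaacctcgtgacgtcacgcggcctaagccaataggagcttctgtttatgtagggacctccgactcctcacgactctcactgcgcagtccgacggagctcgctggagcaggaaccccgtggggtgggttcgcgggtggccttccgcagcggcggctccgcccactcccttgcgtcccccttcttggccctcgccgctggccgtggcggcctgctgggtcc
Slc33a1: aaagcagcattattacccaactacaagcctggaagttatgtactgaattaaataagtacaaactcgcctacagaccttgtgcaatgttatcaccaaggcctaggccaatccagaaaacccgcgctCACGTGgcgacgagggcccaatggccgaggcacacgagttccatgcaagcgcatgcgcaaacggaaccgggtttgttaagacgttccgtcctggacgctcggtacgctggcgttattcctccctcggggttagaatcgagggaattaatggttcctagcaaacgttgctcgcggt
Slc35a5: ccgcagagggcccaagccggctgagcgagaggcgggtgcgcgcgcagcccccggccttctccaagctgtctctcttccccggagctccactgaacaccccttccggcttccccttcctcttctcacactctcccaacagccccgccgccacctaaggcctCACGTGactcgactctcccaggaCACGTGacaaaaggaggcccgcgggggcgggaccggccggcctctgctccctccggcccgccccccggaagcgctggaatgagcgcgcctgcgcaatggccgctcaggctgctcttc
Slc35a5 holds the E-box at 2 places, Slc25a36 and Slc33a1 at 1 each, and Slc3a2 at none. Counting every window of a gene with several starts, an E-box stood in 4 of 26 windows of members called higher in colon lamina propria, in 8 of 33 of members called lower, in 11 of 94 of the other members and in 7.15% of all 32851 windows. The C/EBP-ATF letters TGATGNAA (either strand) stood in none of the 26 and none of the 33, and in 3.97% of all windows. The AP-1 letters TGANTCA (either strand) stood in 1 of the 26, in none of the 33 and in 7.81% of all windows. Neither of these other motifs is in a window shown, and a match of letters is a description, not a site.

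Of 20 metal carriers 3 were higher in colon lamina propria and 2 lower (2 and 6 with library totals alone), the copper carriers Slc31a1 and Slc31a2 being counted with the other substrates below. Slc39a4, a zinc importer, measured 26.99 and 22.2 CPM in KO and 30.8 and 17.3 CPM in control colon, against 7.24 and 7.67 CPM in KO and 6.37 and 9.79 CPM in control spleen. The groups stood well apart (log2 1.63 ± 0.20 SE, edgeR adjusted p = 0.000131). The magnesium carrier Slc41a1 (1.34 ± 0.25) and the zinc importer Slc39a8 (0.85 ± 0.26) were higher, Slc39a8 not with library totals alone (adjusted p = 0.0712). The Golgi zinc carriers Slc30a7 (-0.80 ± 0.16) and Slc30a6 (-0.78 ± 0.18) were lower. The zinc importer Slc39a1 (-0.37 ± 0.28, adjusted p = 0.325) and the zinc exporter Slc30a1 (0.46 ± 0.27, adjusted p = 0.202) did not pass.

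Of 18 carriers of inorganic ions 3 were higher and 5 lower. Slc26a2, the sulfate carrier, averaged 25.9 ± 8.46 CPM in colon and 8.095 ± 1.09 CPM in spleen (SD, n = 4 each; log2 1.67 ± 0.25 SE, edgeR adjusted p = 0.000434). The phosphate importer Slc20a1 passed narrowly (0.41 ± 0.15, edgeR adjusted p = 0.0448), and not with library totals alone (adjusted p = 0.267). Slc8b1, the sodium-calcium exchanger of mitochondria, had the lowest fold of this role, with 3.71 ± 0.815 CPM in colon and 9.59 ± 1.46 CPM in spleen (log2 -1.34 ± 0.20 SE, edgeR adjusted p = 0.000381).

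Among the 11 sugar and carboxylate carriers 3 were higher and 2 lower. Slc16a6, of the monocarboxylate carrier family, measured 68.3 and 61.7 CPM in KO and 62.6 and 60.1 CPM in control colon, against 14.5 and 15.96 CPM in KO and 20.4 and 18.7 CPM in control spleen. Its libraries were close together within each tissue and far apart between them (log2 1.86 ± 0.12 SE, edgeR adjusted p = 1.25e-06). Slc5a3, the sodium-coupled importer of the osmolyte myo-inositol, measured 26.6 and 23.99 CPM in KO and 24.9 and 3.55 CPM in control colon, against 4.19 and 2.74 CPM in KO and 3.46 and 1.85 CPM in control spleen. Colon control 2 fell inside the spleen range, so the groups overlapped although the test passed (log2 2.66 ± 0.60 SE, edgeR adjusted p = 0.00712). Slc2a6, of the glucose transporter family, averaged 7.86 ± 4.28 CPM in colon and 1.52 ± 0.919 CPM in spleen (SD, n = 4 each). Slc37a1 (-0.59 ± 0.21) and Slc37a4, the glucose-6-phosphate carrier of the endoplasmic reticulum (-0.63 ± 0.23), were lower with overlapping groups. The Slc37a1 call was lost in 13 of 23 alternatives, with a log2 fold change of -0.11 in the replicate 2 libraries alone.

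Of the 25 tested carriers of nucleosides, vitamins, lipids, peptides and other substrates, 6 were higher and 5 lower. Slc15a3, a lysosomal carrier of histidine and small peptides, measured 41.3 and 37.4 CPM in KO and 45.8 and 20.8 CPM in control colon, against 16.8 and 6.82 CPM in KO and 6.096 and 7.02 CPM in control spleen. KO spleen 1 stood above the other spleen libraries and below every colon library (log2 2.05 ± 0.30 SE, edgeR adjusted p = 0.00047; 0.108 in the replicate 1 libraries alone). That library also held the highest macrophage marker sum, 144 CPM, against 4.32 to 38.5 CPM in the other 11. Of 8 markers 7 were detected in it, and Lyz2 alone gave 134 CPM. Its C1qa, C1qb and C1qc (0.381, 1.53 and 0.763 CPM) were lower than in every other spleen library. Mrc1, Cd68, Adgre1 and Csf1r were at 0.0 to 5.53 CPM there. Without KO spleen 1 the Slc15a3 fold was 2.38, and without cells carrying 3 or more UMIs of other cell types' markers it was 2.06 (log2).

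Slc52a3, a riboflavin importer, was higher (log2 1.22 ± 0.19), as were Slc31a1, the copper importer (0.89 ± 0.18; Slc31a2 0.10 ± 0.32, adjusted p = 0.834), and Slc15a2, a peptide importer (1.76 ± 0.35). Slc33a1, which carries acetyl-CoA into the endoplasmic reticulum, was lower, with 9.66 ± 1.29 CPM in colon and 18.98 ± 1.13 CPM in spleen (SD, n = 4 each; log2 -0.97 ± 0.15 SE, edgeR adjusted p = 0.000425). Slc17a9, the vesicular ATP carrier (-0.80 ± 0.17), and Slc44a2, a choline transporter-like protein (-0.52 ± 0.11), were lower too, but not in the replicate 2 libraries alone (adjusted p = 0.0965 and 0.0723). Slc29a1, a nucleoside carrier of the cell surface, did not pass (-0.28 ± 0.15, adjusted p = 0.167).

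A last role held 4 genes that carry the Slc prefix without being carriers or that lie opposite to one. Slc9a3r1, a scaffold that ties membrane proteins to ezrin, averaged 259 ± 5.17 CPM in colon and 281 ± 13.7 CPM in spleen (SD, n = 4 each) and did not pass (adjusted p = 0.357). Slc4a1ap was higher (0.44 ± 0.14), but not with library totals alone (adjusted p = 0.226), and Slc36a3os was lower (-0.58 ± 0.16), but not in the replicate 2 libraries alone (adjusted p = 0.063), over all cells (0.147) or without spleen control 2 (0.0521). The sources used here do not say whether reads were counted by strand, so values of the opposite-strand genes Slc36a3os and Slc7a6os are uncertain.

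Colon epithelium was compared with colon lamina propria with 1 KO and 1 control library against 4, both epithelium libraries being of replicate 2. Of 148 members 13 were higher in the epithelium and 21 lower (23%), against 19.4% of 11305 genes (8.52% higher and 10.8% lower; edgeR adjusted p under 0.05). The median log2 fold change was 0.08 in the members and 0.04 over all genes. With library totals alone the median of all genes moved by 0.28 and the split became 29 higher and 14 lower, with 27 of the 34 calls kept. The count was 3 without the KO library of the epithelium and 12 without its control library. Epithelial markers moved with this comparison, summing to 618 CPM in the KO and 42.2 CPM in the control epithelium, against 17.6 to 72.2 CPM in colon lamina propria. Without cells carrying 3 or more UMIs of other cell types' markers, 14 members were higher and 23 lower. All 3 tissue comparisons use the same colon lamina propria libraries, so opposite signs in a pair of them are not independent.

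Of the 18 amino acid carriers 5 were lower in the epithelium and none higher, with a median of -0.25 (4 lower, 5 higher and a median of 0.04 with library totals alone). Slc3a2 measured 166 CPM in the KO and 232 CPM in the control epithelium, against 386 to 749 CPM in colon lamina propria (log2 -1.52 ± 0.28 SE, edgeR adjusted p = 0.00531). Slc7a5 measured 6.103 CPM in KO and 10.1 CPM in control epithelium, against 21.1 to 56.3 CPM (log2 -2.27 ± 0.36 SE, edgeR adjusted p = 0.00294). Slc7a1 measured 5.64 CPM in KO and 5.68 CPM in control epithelium, against 14.3 to 30.8 CPM (log2 -2.03 ± 0.32 SE, edgeR adjusted p = 0.00228), and passed in all 22 alternatives. Without the KO library of the epithelium every call of this role other than that of Slc7a1 was lost, Slc38a1 included. The log2 fold change was then -1.25 for Slc3a2, -1.84 for Slc7a5 and -1.93 for Slc38a2. Without the control library of the epithelium the Slc38a2 call was lost as well (log2 -1.72). Both fits leave 1 epithelium library. Slc38a2 (-1.82 ± 0.37, adjusted p = 0.00955) and Slc38a1 (-0.75 ± 0.19, adjusted p = 0.02) were lower, Slc38a1 not with library totals alone (adjusted p = 0.0692). For each of these 5 genes both epithelium libraries lay below all 4 of colon lamina propria.

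Of the 14 tested genes of the amino acid response, Ddit3 and Trib3 were lower in the epithelium and Ddit4 was higher, with a median of -0.38. Atf4 averaged 68.0 CPM in the epithelium and 138 CPM in colon lamina propria and did not pass (log2 -1.02 ± 0.38, edgeR adjusted p = 0.0864). Of 9 genes of metal handling, Fth1, Ftl1, Mtf1 and Tfrc were lower and Aco1 was higher, with a median of -0.69. Of 11 genes of mTORC1 sensing, Mtor and Rheb were lower and Lamtor4 was higher, with a median of -0.28. Over all genes 19.4% were called and the median was 0.04.

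Of 33 mitochondrial carriers 3 were higher in the epithelium and 4 lower (7 and 3 with library totals alone). Slc25a36 averaged 11.8 ± 0.482 CPM in the epithelium (n = 2) and 35.5 ± 9.39 CPM in colon lamina propria (n = 4, SD; log2 -1.59 ± 0.28 SE, edgeR adjusted p = 0.0042), and Slc25a51 was lower too (-1.28 ± 0.22, adjusted p = 0.00353). Slc25a11, the oxoglutarate carrier, was higher (0.60 ± 0.19, adjusted p = 0.0456, and 0.0604 with the block), a call lost in 11 of 22 alternatives. In the Slc35 family 4 were higher and 4 lower (5 and 3 with library totals alone). Slc35c1 stood at 19.4 CPM in KO and 17.1 CPM in control epithelium, against 8.08 to 10.2 CPM in colon lamina propria (log2 1.02 ± 0.20 SE, edgeR adjusted p = 0.00639). Slc35a5 (1.02 ± 0.23) and Slc35a1 (0.95 ± 0.22) were higher as well, and Slc35e2 (-2.20 ± 0.47) and Slc35d1 (-1.37 ± 0.25) were lower.

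Slc9a3r1 measured 366 CPM in the KO and 442 CPM in the control epithelium, against 256 to 267 CPM in colon lamina propria (log2 0.64 ± 0.11 SE, edgeR adjusted p = 0.00353, and 0.0699 without the control library). Both epithelium libraries were above all others. Slc33a1 (1.02 ± 0.17), Slc8b1 (1.53 ± 0.23) and the zinc importer Slc39a6 (0.65 ± 0.14) were higher, and Slc44a2 passed narrowly (0.46 ± 0.14, adjusted p = 0.0383, and 0.0512 with the block; lost in 10 of 22 alternatives). Slc52a3 was lower (-1.20 ± 0.23, adjusted p = 0.00604), as were Slc16a6 (-0.60 ± 0.15; adjusted p = 0.149 with library totals alone) and Slc5a3 (-2.64 ± 0.76, adjusted p = 0.0386, and 0.0734 with the block). The Slc5a3 call was lost in 11 of 22 alternatives, and colon control 2 lay inside the range of the epithelium libraries. Without the KO library of the epithelium the calls named here of Slc25a36, Slc25a51, Slc35c1, Slc35a5, Slc35a1 and Slc35e2 were lost too. So were those of Slc35d1, Slc33a1, Slc39a6, Slc52a3 and Slc16a6. Without the control library of the epithelium the calls of Slc35a5, Slc35a1, Slc35e2, Slc39a6 and Slc52a3 were lost as well. Each of these fits leaves 1 epithelium library.

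**Figure D3:**
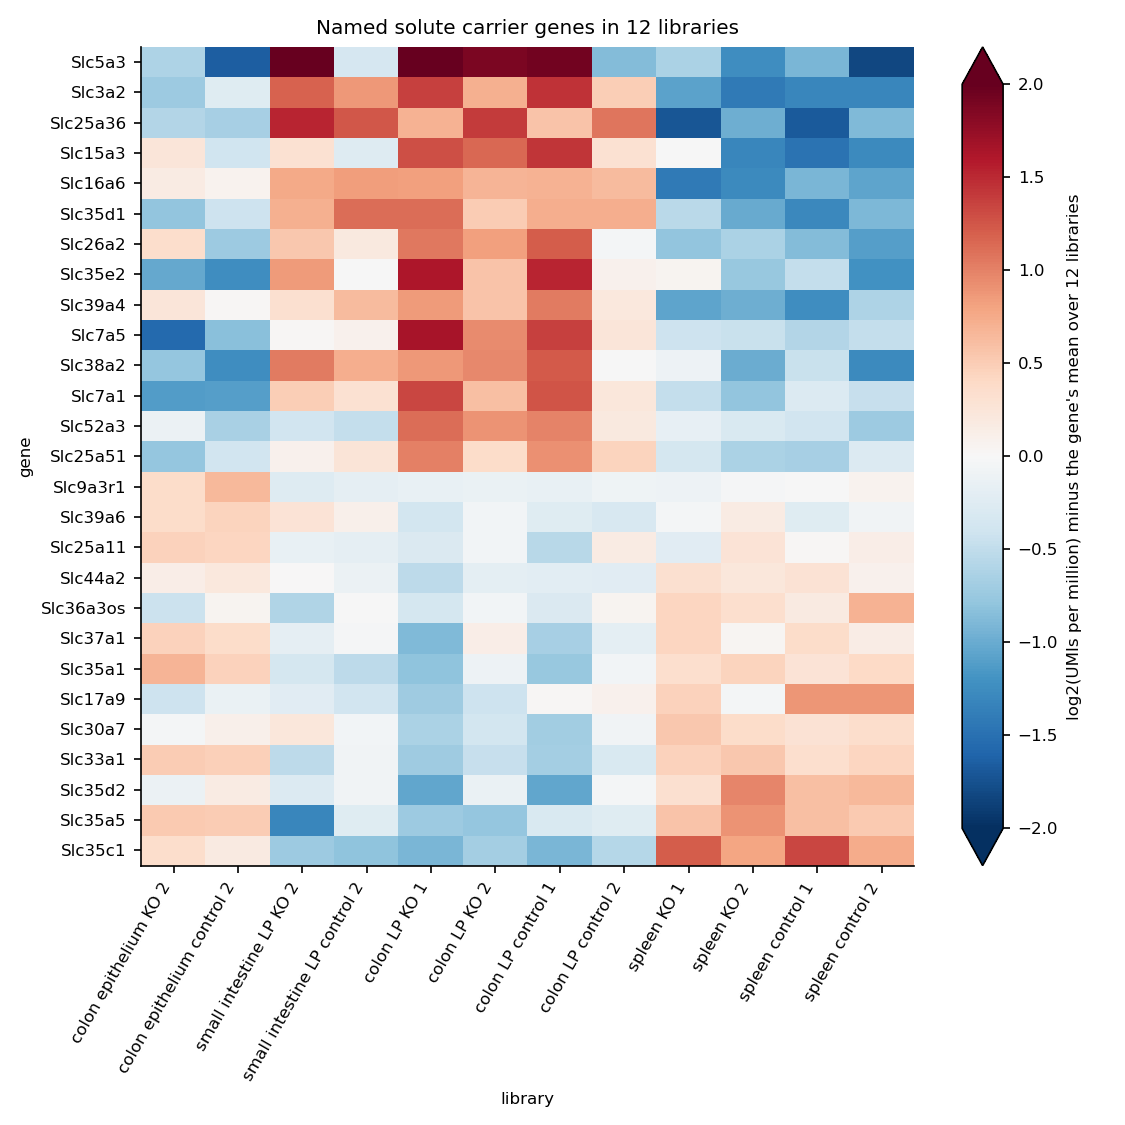
Each tile is the log2 CPM of a gene in a library minus the gene's mean over the 12 libraries, for the 27 members named in the comparisons of colon lamina propria with spleen and of colon epithelium with colon lamina propria, ordered by their fold of colon lamina propria over spleen; the colour scale ends at 2 and -2. Genes at the top are high in the lamina propria libraries and low in spleen, genes at the bottom the reverse, and Slc5a3 in colon control 2 departs from the other 3 colon lamina propria libraries.

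Small intestine lamina propria was compared with colon lamina propria in the same way. No member passed, against 0.00885% (1) of 11305 genes. At an unadjusted p under 0.05 there were 14 members and 1279 genes, and DESeq2 called 1 member and 103 genes. The smallest p was that of Slc52a3, at 8.05 CPM in KO and 7.54 CPM in control small intestine against 11.9 to 22.6 CPM in colon (log2 -1.21 ± 0.26 SE, edgeR adjusted p = 0.232). Its adjusted p was 0.0218 with DESeq2, 0.046 without the filter on low counts and 0.0403 without colon control 2. Slc7a5 was at 18.2 CPM in KO and 19.1 CPM in control small intestine, against 21.1 to 56.3 CPM in colon (adjusted p = 0.346, and 0.0481 without colon control 2). Slc8b1 was at 8.05 CPM in KO and 6.09 CPM in control small intestine, against 3.03 to 4.89 CPM in colon (adjusted p = 0.328). In simulated counts without a batch effect, this comparison recovered 40.3% of 2-fold and 100% of 4-fold changes in genes at 10 CPM or more.

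KO was compared with control in colon lamina propria and in spleen, 2 libraries against 2, and across the 4 tissues, 6 against 6. No member passed edgeR's threshold in any of them, and 0% of 10976 genes (colon and spleen) and 0% of 11305 genes (across tissues) did. At an unadjusted p under 0.05 there were 3 members and 123 genes in colon, 2 and 128 in spleen, and 9 and 525 across tissues. DESeq2 called no member, and 0 genes in colon, 3 in spleen and 3 across tissues. The members' median log2 fold change was 0.05 in colon, 0.04 in spleen and 0.01 across tissues. In simulated counts the test recovered 31.3% of 2-fold and 100% of 4-fold changes in colon, and 23.9% and 97% in spleen. Across tissues it recovered 91% and 100%. The changes were placed only in genes at 10 CPM or more, with a single dispersion and no batch effect. Among the members 72 had a mean under 10 CPM, and recovery was not simulated at such levels.

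Across the 4 tissues the smallest p among members with a higher KO level was that of Slc46a3, a lysosomal membrane carrier. It measured 12.9 CPM in KO and 6.96 CPM in control colon epithelium, and 8.59 CPM in KO and 5.61 CPM in control small intestine. Colon lamina propria held 5.505 and 9.97 CPM in KO and 5.55 and 4.799 CPM in control libraries, and spleen 7.82 and 7.95 CPM in KO and 6.24 and 4.803 CPM in control libraries. The KO library was the higher in 5 of 6 pairs of the same tissue and number (log2 0.62 ± 0.17 SE, edgeR adjusted p = 1).

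Among members with a lower KO level it was that of Slc17a9, at 10.8 CPM in KO and 13.2 CPM in control colon epithelium, and at 12.3 CPM in KO and 11.1 CPM in control small intestine. Colon lamina propria held 8.88 and 10.9 CPM in KO and 14.8 and 15.4 CPM in control libraries, and spleen 20.02 and 14.1 CPM in KO and 26.6 and 26.7 CPM in control libraries. The KO library was the lower in 5 of 6 pairs, with no overlap within colon lamina propria or within spleen (log2 -0.47 ± 0.14 SE, edgeR adjusted p = 1).

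Slc9a9 (log2 0.35 ± 0.15) and Slc12a4 (0.40 ± 0.17), and with lower KO levels Slc25a5 (-0.34 ± 0.13) and Slc25a4 (-0.27 ± 0.11), came next, each with an adjusted p of 1. In the replicate 1 libraries alone the signs of Slc9a9, Slc25a5 and Slc25a4 turned (log2 -0.14, 0.06 and 0.02), and in the replicate 2 libraries alone Slc9a9 passed (log2 0.62, adjusted p = 0.0425). The main amino acid carriers had folds of 0.00 ± 0.18 (Slc3a2), 0.08 ± 0.22 (Slc7a5), -0.06 ± 0.12 (Slc38a1), 0.29 ± 0.23 (Slc38a2) and 0.04 ± 0.09 (Slc1a5), with an adjusted p of 1 each. Within colon lamina propria the smallest p belonged to Slc35e4 (log2 0.84 ± 0.31) and Slc17a9 (-0.61 ± 0.24), and within spleen to Slc15a3 (0.80 ± 0.52) on the higher and Slc17a9 (-0.65 ± 0.24) on the lower side, each with an edgeR adjusted p of 1. The Slc15a3 fold in spleen was 0.03 without KO spleen 1 and 1.36 without KO spleen 2 (log2). KO spleen 1 is the library with 144 CPM of macrophage markers, of which Lyz2 alone gave 134 CPM.

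The difference of the KO effect between colon lamina propria and spleen was tested as an interaction. No member passed, against 0% of 10976 genes, with 2 members and 114 genes at an unadjusted p under 0.05, and with no member and 2 genes called by DESeq2. The smallest p was that of Slc27a1, a fatty acid transport protein, at 4.79 and 8.21 CPM in KO and 4.37 and 5.07 CPM in control colon, and 1.14 and 1.196 CPM in KO and 2.08 and 2.59 CPM in control spleen. Its KO libraries were the lower in both spleen pairs and the higher in both colon pairs (log2 difference 1.45 ± 0.56 SE, edgeR adjusted p = 1).

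**Figure D4:**
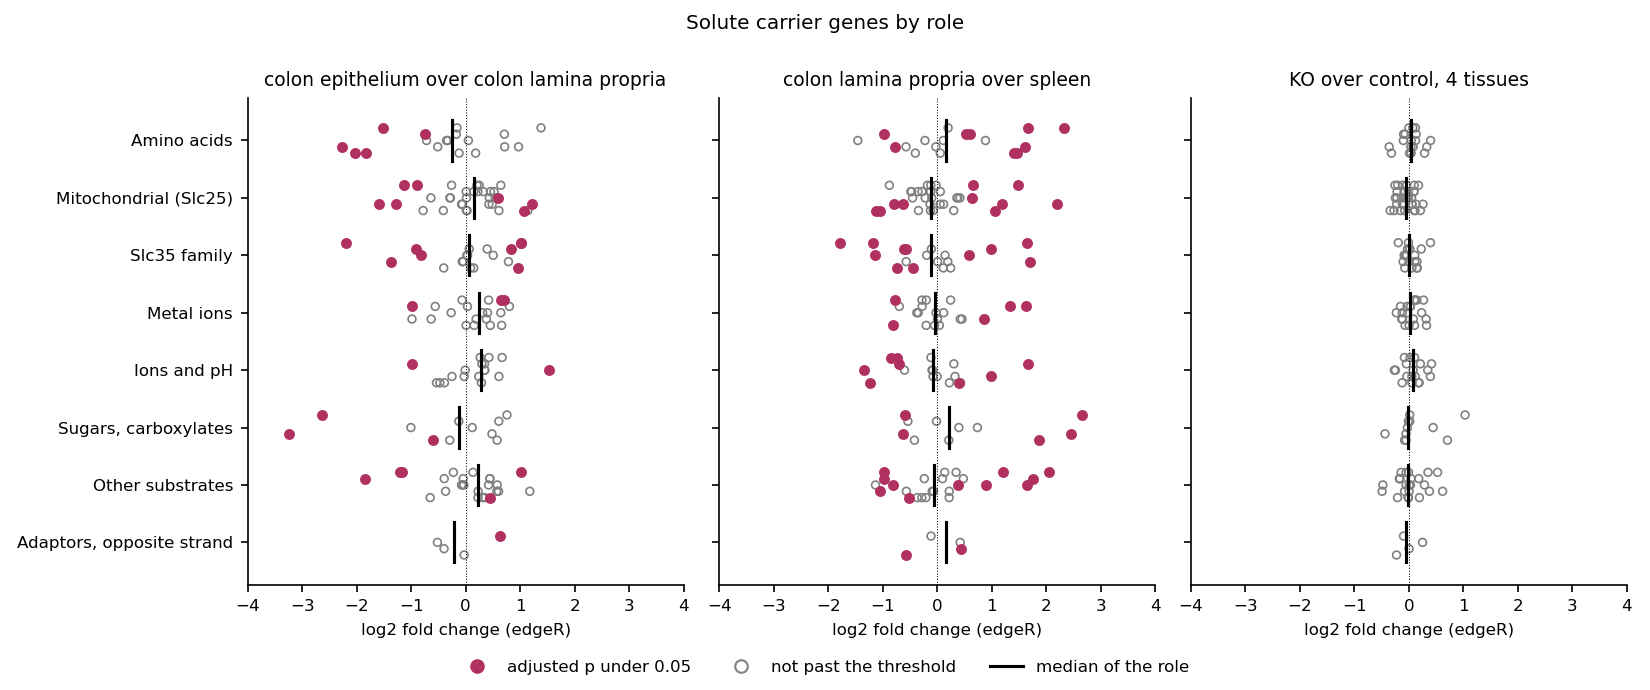
Log2 fold changes of the 148 tested members by role (horizontal axis, edgeR) for colon epithelium over colon lamina propria, colon lamina propria over spleen, and KO over control across 4 tissues; filled points passed an adjusted p of 0.05, open points did not, and black bars are the medians of each role. The tissue panels hold 34 and 61 filled points, and the KO panel holds none.

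Small intestine and colon epithelium had 1 KO and 1 control library each, so no test was run there, and members with 50 or more UMIs over both libraries were described by the ratio of their CPM with an exact 95% interval for counting error alone. In small intestine 1 of 103 such members was 2-fold or more higher in KO (2.11% of 7758 genes) and 2 were at 0.5 or less (3.04%), together 3 members against 5.16%. Slc5a3 measured 30.6 CPM (57 UMIs) in KO and 5.13 CPM (32 UMIs) in control, a ratio of 5.96 (3.7998 to 9.497). Slc39a3, a zinc importer (0.47, 0.235 to 0.869), and Slc35a5 (0.48, 0.197 to 1.01) were the lower ones, the interval of Slc35a5 reaching past 1. Epithelial markers summed to 14.5 CPM in the KO and 186 CPM in the control library. Without cells carrying 3 or more UMIs of other cell types' markers the ratios were 0.475 for Slc39a3, 0.483 for Slc35a5 and 5.92 for Slc5a3. No member with 100 or more UMIs was past 2-fold. Over all cells instead of CD3-positive cells 13 members were, in a KO library of which 50.6% of cells were CD3-positive.

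In colon epithelium 6 of 140 members were 2-fold or more higher in KO (3.16% of 9697 genes) and none was at 0.5 or less (1.02%), against 4.18% both ways. Slc44a1, a choline carrier, measured 4.44 CPM (48 UMIs) in KO and 0.4797 CPM (6 UMIs) in control, a ratio of 9.25 (3.95 to 26.5). Slc6a8 measured 10.4 CPM (112 UMIs) in KO and 2.32 CPM (29 UMIs) in control, a ratio of 4.47 (2.95 to 6.97). Slc5a6, a multivitamin carrier (2.57), Slc25a23, a calcium-regulated ATP carrier of mitochondria (2.15), Slc26a2 (2.11) and Slc5a3 (2.05) followed.

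Epithelial markers moved with these ratios. In each library 14 of 15 were detected, and their sum was 618 CPM in KO and 42.2 CPM in control colon epithelium, against 3.80 to 186 CPM in the other 10 libraries. Leaving out CD3-positive cells with 3 or more UMIs of other cell types' markers kept 97.7% of the KO and 99.5% of the control cells. The ratio was then 1.02 for Slc44a1, 1.61 for Slc6a8 and 1.11 for Slc26a2. It was 2.52 for Slc5a6 and 2.28 for Slc25a23, and 1.65 for Slc5a3. With 5 or more CD3 UMIs per cell it was 2.78 for Slc44a1, 1.68 for Slc6a8 and 1.53 for Slc26a2.

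**Figure D5:**
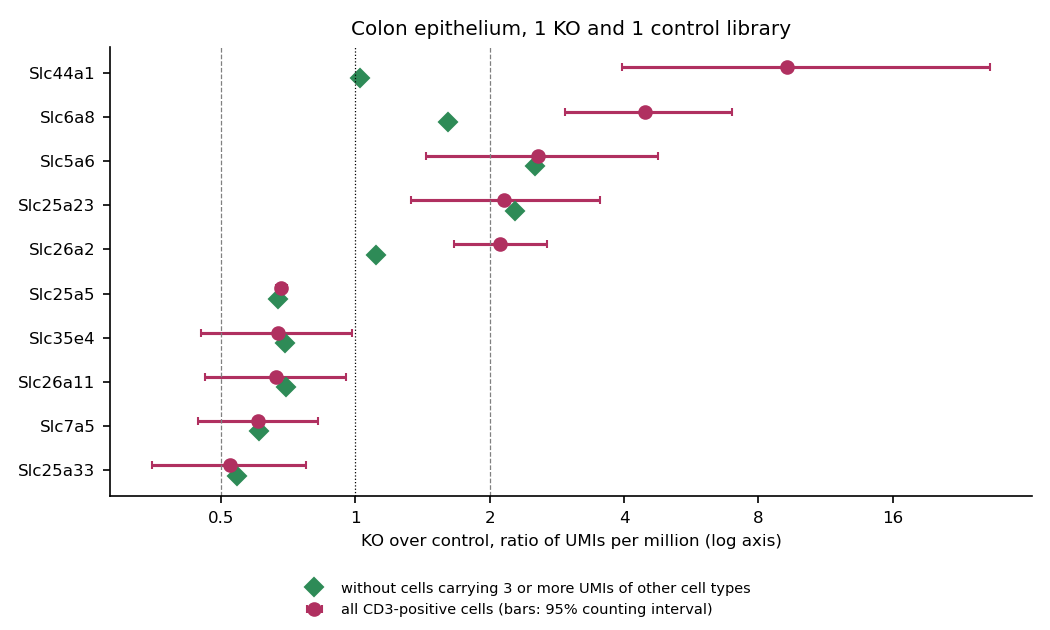
Ratio of CPM, KO over control colon epithelium (log axis), for 10 members, the 5 highest and 5 lowest ratios, in all CD3-positive cells (circles, bars are 95% counting intervals) and without cells carrying 3 or more UMIs of other cell types' markers (diamonds). For Slc44a1, Slc6a8 and Slc26a2 the diamonds stand at 1.02, 1.61 and 1.11.

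The order of tissues was not the same for all carriers. Of the 149 members 45 had their highest mean in colon epithelium, 32 in small intestine, 34 in colon lamina propria and 38 in spleen. This split was not taken over all genes. In small intestine Slc3a2 stood at 499 to 619.8 CPM, Slc38a2 at 140.03 to 175 CPM, Slc25a36 at 42.8 to 52.1 CPM and Slc16a6 at 64.9 to 68.5 CPM, all near or within their ranges in colon lamina propria. Slc16a6 was intermediate in colon epithelium, at 43.2 CPM in KO and 40.4 CPM in control, between the 60.1 to 68.3 CPM of colon lamina propria and the 14.5 to 20.4 CPM of spleen. Slc15a2 averaged 9.35 CPM in small intestine and 4.68 CPM in colon lamina propria, and 1.27 CPM in colon epithelium and 1.33 CPM in spleen.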

How the data were processed

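The deposited matrix holds whole-number UMI counts of 18601 genes in 32763 cells; per the labels' protocols, the authors used 10x 3′ version 2 kits. Cell Ranger 2.0.2 and mm10 are listed in the submitters' processing notes. In the cell table the library and batch columns were used, and 2 others (genotype, tissue) were not. The members, roles and other lists were chosen with earlier results of these data known, and opposite-strand genes were moved to the role of adaptors after their names were seen.

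Counts were summed per library over CD3-positive cells, with no other filter on cells and no doublet caller. Genes were kept by filterByExpr, scaled by TMM (factors 0.844 to 1.13 over 12 libraries) and tested over all kept genes with edgeR 4.0.16 in R 4.3.3 (quasi-likelihood, Benjamini-Hochberg, threshold 0.05). The 12 libraries were fitted for tissues and for KO across tissues, and the 8 of colon lamina propria and spleen for KO within a tissue and the interaction. Standard errors came from the log2 fold change and its F statistic. The labels do not say how many animals stand behind a replicate. Replicates 1 and 2 differed in Xist and Y-linked genes, so they were not repeats of the same cells. The spread between samples that p-values measure therefore also holds differences of batch and sex. The batch equalled the replicate number in all 32763 cells, and same-numbered libraries deviated together (Pearson r 0.36 to 0.62 over 6719 genes, 6 pairs of groups). Numbers were taken to pair the libraries where pairs are described. The main fits did not use this pairing, and the replicate number entered only as a block in alternatives. Replicate 1 holds 4 libraries and replicate 2 holds 8. The test was tested on simulated data. DESeq2 1.42.0 was an alternative. Intervals cover counting error only.

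Named members were taken from up to 10 each way with the largest fold among those past the threshold at 10 CPM or more, the 3 smallest p each way where none passed, 5 ratios each way without replicates, and 14 listed carriers. Further examples of a role (such as Slc6a6, Slc38a9, Slc36a1, Slc2a6, Slc31a1 and both mitoferrins) and Slc5a3 across tissues were named after their values were seen.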

Additional observations from a re-analysis of the deposited data

Results flagged for a closer look

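Single libraries stood apart in 10 of 134 sets of 4 libraries examined (named members and sums by role, in colon lamina propria and in spleen), by the gap to the nearest library as a share of the range. Chance marks about 1 in 20 such sets.

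In colon lamina propria, Slc5a3 was at 3.55 CPM in control 2, against 24.0 to 26.6 CPM in the other 3 libraries. Slc25a23 was at 1.42 CPM in KO 1, against 2.78 to 3.03 CPM. Slc25a4 was at 295 CPM in control 2, against 215 to 225 CPM. Slc44a2 was at 36.3 CPM in KO 1, against 44.8 to 46.0 CPM, and Slc46a3 at 9.97 CPM in KO 2, against 4.80 to 5.55 CPM. The Slc35 family summed to 338 CPM in KO 1, against 299 to 305 CPM.

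In spleen, Slc15a3 was at 16.8 CPM in KO 1, against 6.10 to 7.02 CPM. Slc1a5 was at 108 CPM in control 2, against 90.9 to 92.8 CPM. The same library was the highest for the summed adaptors and opposite-strand genes, 365 CPM against 332 to 336 CPM, and for all members together, 4361 CPM against 4058 to 4088 CPM.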

How the results depend on the processing

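Counts of called members, both directions together, stayed within 1.5 times in the alternatives tried, except as follows. Colon lamina propria against spleen gave 34 calls in the replicate 2 libraries alone (32 of them among the 61), and 46 to 64 with 1 library left out. Colon epithelium against colon lamina propria gave 3 (without its KO library) to 49 (without colon lamina propria control 2) with 1 library left out. By direction, the 28 lower calls against spleen became 17 without colon lamina propria KO 1, 10 in the replicate 2 libraries alone and 43 with library totals. The 13 higher calls of the epithelium became 29 with library totals, 8 with the replicate block, 7 in the replicate 2 libraries alone and 2 to 21 with 1 library left out, and its 21 lower calls became 1 without its KO and 7 without its control library. Small intestine against colon lamina propria gave 1 without a filter on low counts, 1 with DESeq2 and 0 to 2 with 1 library left out, 2 being without colon lamina propria control 2. KO against control across tissues gave 1 in the replicate 2 libraries alone. Members past 2-fold in small intestine numbered 13 over all cells and 0 at 100 or more UMIs. In colon epithelium they numbered 10 over all cells, 2 with 5 or more CD3 UMIs, 2 at 100 or more UMIs and 2 without cells carrying other types' markers.

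Signs turned for Slc15a3 in small intestine against colon (log2 0.128 over all cells) and, across tissues in the replicate 1 libraries alone, for Slc25a4 (0.0166), Slc25a5 (0.0624) and Slc9a9 (-0.141), none of which had passed. The cause was not tested. Of the values of single members under alternatives, 1409 were counted as unchanged, 73 no longer passed, 5 passed anew, 4 turned and 7 ratios moved. Tested values counted as unchanged kept their sign and their side of the threshold. A ratio was counted as unchanged where it stayed inside the counting interval of the main analysis, so it could still cross 2-fold. Over all genes, KO against control without the filter called 83 genes in colon and 70 in spleen. With the replicate number as a block, colon lamina propria against spleen gave 71 calls, with all 61 kept, and colon epithelium 23 of its 34, and no KO comparison gained a call. The library-totals scaling, the replicate 1 libraries alone and the cells without other types' markers (for ratios and for tissue means) were chosen after seeing the data. The KO small intestine library, with 1902990 UMIs, limits what could be seen there.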

Other observations

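Slc5a3 was the higher in the KO library in all 6 pairs of the same tissue and replicate number. The pairs were 4.25 CPM in KO and 2.08 CPM in control colon epithelium, 30.6 CPM in KO and 5.13 CPM in control small intestine, 26.6 and 24.9 CPM and 24.0 and 3.55 CPM (KO and control) in colon lamina propria, and 4.19 and 3.46 CPM and 2.74 and 1.85 CPM in spleen. Across tissues the log2 fold change was 1.03 ± 0.48 (SE, edgeR adjusted p = 1), which did not pass. The colon epithelium pair was 3.45 CPM in KO and 2.09 CPM in control without cells carrying 3 or more UMIs of other cell types' markers. Of the 148 tested members, 7 (4.73%) were higher in KO in all 6 pairs and 3 (2.03%) were lower in all 6, against 2.37% and 2.12% of 11305 genes. Slc5a3 was chosen for this description because of its values.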
